A study of Homo sapiens with 32 samples.

Results

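NABP2 encodes a small single-stranded DNA-binding protein (also known as hSSB1 or SOSS-B1), and it was the only gene that met a rule for loss of counts after cells were given 4-thiouracil. The rule asked for at least 50 CPM (counts scaled to a common library total) over the summed 0 min libraries and, over the 24 summed later libraries, a CPM of at most 0.2 times that. Symbols of several abundant families (histones, ribosomal, respiratory chain, proteasome, SLC and ZNF genes among them), EIF3I and RMRP were left out. Of 32738 gene entries 2698 reached 50 CPM at 0 min, 4 lay within both limits, 3 of these were left out by symbol, and NABP2 remained. It was thus chosen by its level after labelling relative to 0 min, and its difference from 0 min is given as a description without a test.

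The counts are from HEK293 cells, an established human embryonic kidney line, given 4-thiouracil for 0, 5, 15 or 30 min. This uracil analogue marks RNA made during the incubation; no genotype or other treatment is named for any group, and all groups are labelled as polyadenylated RNA. The library titles begin with TTSeq. The sources used here do not otherwise say whether marked RNA was purified or what the 0 min cells were given. Whether the 0 min and later libraries hold the same fraction of RNA was not tested. Each time had 2 biological replicates (called cultures below), each with 2 cDNA preparations of 2 libraries, so that 32 libraries were summed into 8 cultures. Nothing says that the cultures were grown separately, so the tests measure the spread between these samples, which may be technical.

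NABP2 binds single-stranded DNA through an oligonucleotide-binding fold and works in the repair of DNA double-strand breaks. Together with INTS3, a scaffold shared with the Integrator complex, and the small protein INIP it forms the SOSS complex. Its paralogue NABP1 (hSSB2, SOSS-B2) can take its place in that complex. Replication protein A, made of RPA1, RPA2 and RPA3, is the main single-stranded DNA-binding complex of the nucleus, and SSBP1 is its counterpart in mitochondria.

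The promoters of NABP2 and NABP1 are shown because the counts of these paralogues moved in opposite directions. Each window runs from 250 bases before to 50 bases after the RefSeq start on GRCh38.p14, at chr12:56224092-56224391 on the plus strand for NABP2 and chr2:191677886-191678185 on the plus strand for NABP1. Capitals mark matches, read on both strands, to the CCAAT box, to the GC box core GGGCGG and to the TATA box TATAAA. No matches overlap.
NABP2: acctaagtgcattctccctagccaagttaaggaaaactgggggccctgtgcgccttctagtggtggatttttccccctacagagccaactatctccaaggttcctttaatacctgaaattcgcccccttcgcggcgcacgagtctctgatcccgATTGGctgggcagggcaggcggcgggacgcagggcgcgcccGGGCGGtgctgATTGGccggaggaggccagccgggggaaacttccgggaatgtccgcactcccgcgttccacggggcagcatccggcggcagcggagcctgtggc
NABP1: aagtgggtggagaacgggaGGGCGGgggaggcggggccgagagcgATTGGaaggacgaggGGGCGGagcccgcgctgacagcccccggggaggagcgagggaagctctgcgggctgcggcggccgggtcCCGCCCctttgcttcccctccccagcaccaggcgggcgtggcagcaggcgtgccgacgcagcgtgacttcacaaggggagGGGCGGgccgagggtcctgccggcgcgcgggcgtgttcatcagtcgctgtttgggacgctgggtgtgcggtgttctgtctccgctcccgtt
The NABP2 window holds 2 CCAAT matches, both on the minus strand, and 1 GGGCGG match. The NABP1 window holds 1 CCAAT match and 4 GGGCGG matches. Neither window holds TATAAA. Over 27305 RefSeq promoter windows of 300 bases, 35.7% hold CCAAT, 44.59% hold GGGCGG and 11.95% hold TATAAA. The GC content is 63.67% in the NABP2 window and 73.0% in the NABP1 window, against a median of 58.33% over these promoters. These matches are descriptions of the letters only.

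Counts per library ranged from 188686 to 381471 and per culture from 776871 to 1396056. Of the HEK293 markers, 8 were in the table and all 8 had a count, with a summed level of 110.55 to 687.73 CPM over the cultures. Summed markers of fibroblasts, blood, hepatocytes and keratinocytes reached at most 5.15, 2.94, 17.86 and 1.96 CPM, with COL1A2, DCN, PTPRC, CD3E, HBB, LYZ, ALB, SERPINA1, KRT5, KRT14 and KRT1 at 0.

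NABP2 took 183 counts at 0 min and 94 in all the later libraries together. At 0 min its level was 67.36 CPM in culture 1 and 98.81 CPM in culture 2. At 5 min it was 14.16 and 7.70 CPM, and at 15 min 16.42 and 19.29 CPM. At 30 min it was 6.45 and 11.91 CPM. Both 0 min cultures lay above all 6 later cultures, and among the later times both 15 min cultures lay above the others. The rule selected on the gap from 0 min, and the share of all genes lying apart in this way was not counted. The pooled level was 81.71 CPM at 0 min and 12.53 CPM later, a ratio of 0.153 with an exact 95% interval of 0.118 to 0.198. That interval covers counting error only and treats each count as independent. In bulk RNA, fewer cells with the transcript, less transcript per cell and a different make-up of the sequenced RNA cannot be told apart.

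**Figure D1:**
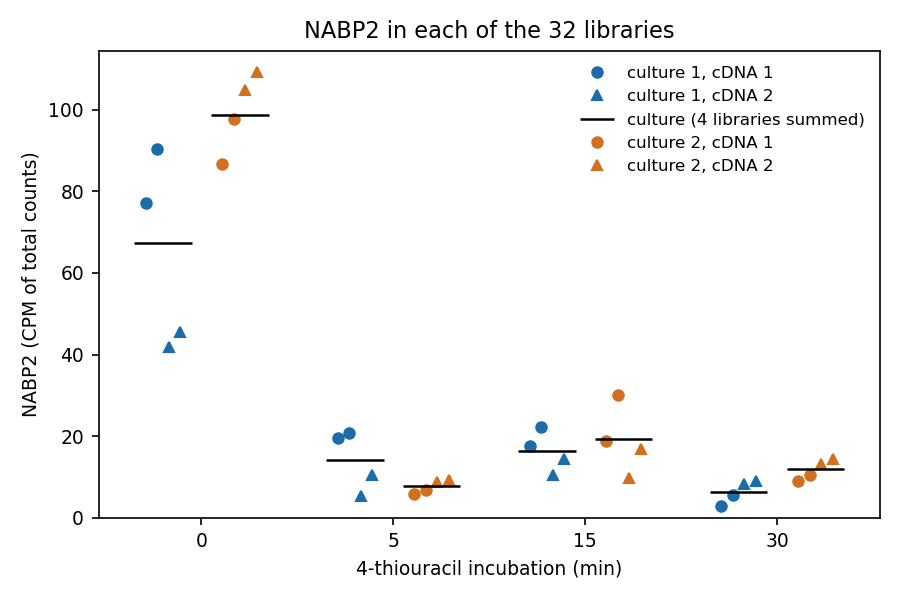
NABP2 level (CPM of total counts) in each of the 32 libraries by incubation time in min; circles and triangles are the first and second cDNA preparation, colours the cultures, and lines the 4 summed libraries of a culture. The 0 min libraries span 41.83 to 109.13 CPM and no later library exceeds 30.05 CPM.

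Library by library, the 8 libraries at 0 min ran from 41.83 CPM through a median of 88.64 to 109.13 CPM. At 5 min they ran from 5.30 through 9.07 to 20.69 CPM. At 15 min they ran from 9.84 through 17.17 to 30.05 CPM, and at 30 min from 2.93 through 9.07 to 14.41 CPM. No 0 min library overlapped any later library, while the libraries of 5, 15 and 30 min overlapped each other. The later values rest on few counts, with 1 to 11 counts in a library, and 21, 48 and 25 counts in all 8 libraries of 5, 15 and 30 min.

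The 2 cDNA preparations of a culture were not always alike. At 0 min each preparation is labelled with its own tagmentation (fragmentation of the cDNA) number, while at each later time every preparation has both numbers. The library layout thus differed between 0 min and later times. A gap between 0 min preparations cannot be told apart from one between tagmentations. In culture 1 at 0 min the first preparation gave 83.89 CPM and the second 43.81 CPM, while in culture 2 they gave 92.18 and 106.99 CPM. In culture 1 at 5 min they gave 20.11 and 7.92 CPM, from 8 and 3 counts. The lowest 0 min preparation, at 43.81 CPM, was above the highest later one, at 24.81 CPM in culture 2 at 15 min, a gap that the rule selected on. With the first preparations alone 4 genes met the rule (NABP2, DYRK4, FAM173B and ASS1), and with the second alone 3 did (NABP2, PPP1CB and CLU).

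Relative to the 0 min mean of 83.1 ± 22.2 CPM (SD, n = 2), NABP2 stood at 13.15% after 5 min, 21.49% after 15 min and 11.05% after 30 min. The order of the levels was 0, 15, 5 and 30 min. Neighbours in that order after 15 min, at 10.9 ± 4.57 CPM for 5 min and 9.18 ± 3.86 CPM for 30 min (SD, n = 2), did not differ beyond their spread. The 15 min mean was 17.9 ± 2.03 CPM (SD, n = 2). On the TMM scale, in which most genes are taken as level between samples, the log2 fold change against 0 min was -3.73 (SE 0.41) at 5 min, -2.98 (SE 0.36) at 15 min and -4.04 (SE 0.40) at 30 min. Scaled by total counts alone it was -2.98, -2.20 and -3.16. The 2 scalings differ because they place the middle of all genes differently: the median log2 change of the 10439 genes tested at 5, 15 and 30 min was 0.10, 0.19 and 0.35 with TMM and 0.83, 0.96 and 1.22 with total counts.

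How the remaining counts divided among 5, 15 and 30 min was not used to choose NABP2, so it was tested, with edgeR's quasi-likelihood test and Benjamini-Hochberg adjustment over all genes. From 5 to 15 min NABP2 differed by a log2 fold change of 0.75 (SE 0.47, adjusted p = 0.525). In that step 1.55% of the genes tested passed. From 15 to 30 min it differed by -1.06 (SE 0.45, unadjusted p = 0.0243, adjusted p = 0.212), where 5.04% of genes passed. From 5 to 30 min the difference was -0.31 (SE 0.52, adjusted p = 0.763), where 12.4% passed. NABP2 therefore passed in none of the 3 comparisons, which share cultures with each other. Leaving out culture 1 of 5 min or culture 1 of 30 min turned the sign of the last one, to 0.10 and 0.06.

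The limits set NABP2 apart from few genes. The 3 genes left out by symbol lay beside it: EIF3I, a subunit of translation initiation factor eIF3, went from 1047.56 to 116.89 CPM (ratio 0.112), SLC50A1, a sugar transporter, from 95.56 to 12.93 CPM (ratio 0.135), and RMRP, the RNA of the RNase MRP complex, from 137.98 to 3.60 CPM (ratio 0.0261). Just above the ratio limit were ISY1, a spliceosome component, at 0.209, C9orf78 at 0.210 and NME6, of the nucleoside diphosphate kinase family, at 0.219. Below the 0 min minimum of 50 CPM, the nearest genes with a ratio within the limit were well under it: HMHA1 at 20.99 CPM, CRYL1 at 19.20 CPM and TRAPPC6A at 14.29 CPM. HMHA1 rested on 1 culture, with 0.82 CPM in culture 1 and 45.0 CPM in culture 2. Over all 2698 genes at 50 CPM or more the median ratio was 0.748, with 0.365 and 3.58 at the 5th and 95th percentiles. A ratio of at most 0.25 was reached by 15 of them.

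**Figure D2:**
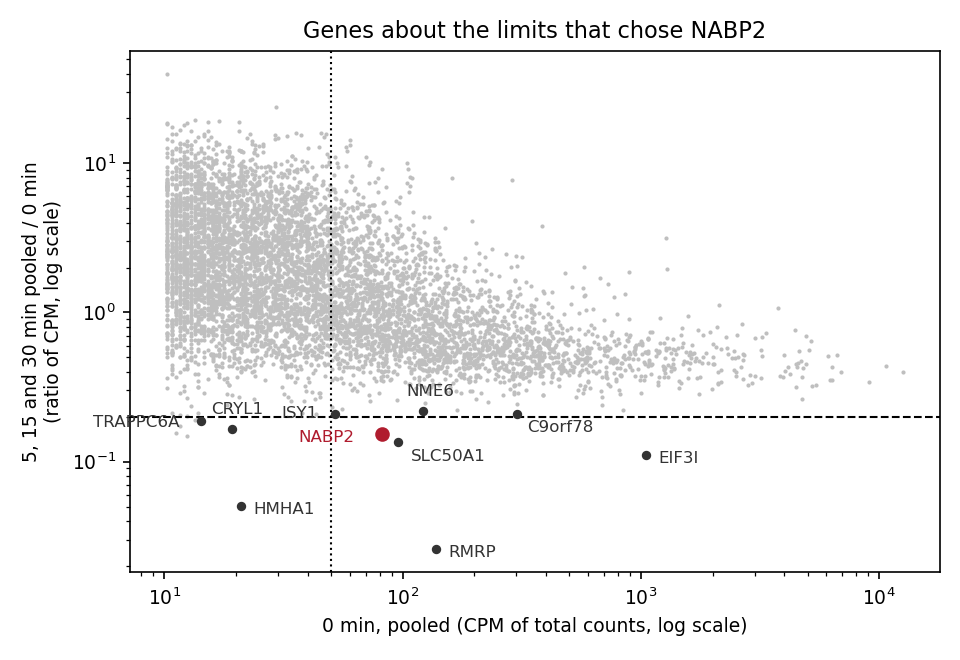
Pooled 0 min level (CPM of total counts, log scale) against the ratio of pooled later CPM to 0 min CPM (log scale) for gene entries at 10 CPM or more at 0 min with a later count; lines mark 50 CPM and a ratio of 0.2. NABP2 (red, ratio 0.153) lies in the lower right region with EIF3I, SLC50A1 and RMRP, and ISY1, C9orf78 and NME6 lie just above the line.

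Genes with the ratio most like that of NABP2 were compared with it between the later times, over 6 cultures. ISY1 had 10.30 and 6.93 CPM at 5 min, 12.69 and 22.26 CPM at 15 min, and 6.45 and 6.70 CPM at 30 min. Like NABP2 it had both 15 min cultures above its other later ones. EIF3I did too, with 124.64 and 178.82 CPM at 15 min against at most 115.36 CPM at 5 or 30 min. The 15 min cultures of SLC50A1, C9orf78 and NME6 did not both lie above their other later ones. From 15 to 30 min ISY1 differed by a log2 fold change of -1.50 (SE 0.51, adjusted p = 0.083 by edgeR), which did not pass. EIF3I fell by 0.81 on the log2 scale over the same step (SE 0.22, adjusted p = 0.0238 by edgeR). SLC50A1 differed by 0.14 (SE 0.45), C9orf78 by -0.30 (SE 0.23) and NME6 by -0.05 (SE 0.30), and none of these passed.

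The number of genes that met the rule changed with its settings. With a ratio limit of 0.25, 12 genes met it: NABP2, DYRK4, PPP1CB, AHCY, NME6, ISY1, PFN2, IK, CTSV, C9orf78, ASS1 and RBM3. Without replicate 2 there were 5 (NABP2, TEX30, ISY1, C9orf78 and ASS1), and without replicate 1 there were 2 (NABP2 and BSCL2). With a minimum of 100 CPM there was none. With TMM-scaled CPM in place of CPM of total counts 69 genes met it, of 3438 at or above 50. Before symbols were left out, 78 lay within both limits on that scale. NABP2 had the lowest ratio of the 69, at 0.0932, and the others ran up to 0.199.

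The wider set of 69 shows which other genes had a later level of at most 0.2 times that at 0 min on the TMM scale. Next to NABP2 stood APOBEC3C, a cytidine deaminase acting on single-stranded DNA, at a ratio of 0.124, C9orf78 at 0.127, ISY1 at 0.132 and RBM3, a cold-induced RNA-binding protein, at 0.133. The most abundant were NPM1, a nucleolar chaperone, which went from 7538.22 and 8271.72 TMM-scaled CPM at 0 min to between 1289.90 and 2049.84 in the later cultures, and TPT1, a growth-linked protein with an oligopyrimidine-start mRNA, which went from 6344.59 and 7468.20 to between 824.41 and 1518.47. ENO1, the glycolytic enolase, went from 6123.64 and 6821.93 to between 1093.27 and 1515.96. These values are among those that chose the 69 genes, and are given as a description. The replacement histone gene H3F3A, the GTPase gene RHOA and the chaperonin gene CCT8 had ratios of 0.190, 0.177 and 0.193. Of the 69 genes 18 stood on the gene lists used here, at most 4 from any one list (ARL1, ARL6IP1, RAB13 and RHOA among small GTPases and vesicle traffic genes).

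Between the later times all 69 could be tested. From 5 to 15 min none passed by edgeR (1.55% of all genes did), with 3 higher and 1 lower at an unadjusted p under 0.05, and none passed by DESeq2 among the 60 it gave an adjusted p for. From 15 to 30 min 10 passed by edgeR, all lower, beside 2.78% of all genes lower. They were MPC1, a subunit of the mitochondrial pyruvate carrier, CLU, KIAA0101, ARL1, SSR3, PFN2, ECHS1, NUTF2, THYN1 and AKR1B1. MPC1 fell by 1.01 on the log2 scale (SE 0.22, adjusted p = 0.00369) and CLU, the secreted chaperone clusterin, fell by 1.11 (SE 0.24, adjusted p = 0.00427). The median over the 69 was -0.40 and over all genes -0.01. The all-gene shares include many scarcer genes than the 69, and shares matched for level were not computed. From 5 to 30 min 5 of the 69 were lower (MPC1, ECHS1, RAB13, IDH3G and KIAA0101), a share close to the 6.52% of all genes lower. None was higher by edgeR with TMM scaling or by DESeq2, with 3 and 1 higher at an unadjusted p under 0.05. With total counts, the scaling of the rule itself, 2 were higher and 3 lower from 5 to 30 min, and 5 were lower from 15 to 30 min. Over all 10439 genes that scaling gave 767 higher and 311 lower from 5 to 30 min, and 202 lower from 15 to 30 min. From 5 to 30 min 1 was higher with no low-count filter, and 1 without culture 1 of 30 min. The 15 to 30 min count rested on single cultures: it was 0 without culture 2 of 15 min, 0 without culture 2 of 30 min, 2 without culture 1 of 30 min and 21 without culture 1 of 15 min. The 5 to 30 min count ran from 1 to 8 lower in such fits, being 3 without culture 1 of 5 min, 2 without culture 2 of 5 min, 1 without either culture of 30 min and 8 without culture 1 of 15 min. With RLE size factors 13 were lower from 5 to 30 min, beside 1122 of all 10439 genes in that setting. All-gene counts with 1 culture left out are given in the last section.

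NABP1, the paralogue of NABP2, went the other way. It had 15.61 and 12.72 CPM at 0 min, 48.91 and 50.83 CPM at 5 min, 67.92 and 48.97 CPM at 15 min, and 63.03 and 49.86 CPM at 30 min. Both 0 min cultures lay below all 6 later ones, but how many of all genes lie apart in this way was not counted. NABP1 was not chosen by the rule and was tested against 0 min by edgeR, where 28.7%, 29.8% and 32.1% of all genes were higher at 5, 15 and 30 min. It rose by a log2 fold change of 1.08 (SE 0.36, adjusted p = 0.0109) at 5 min, 1.26 (SE 0.35, adjusted p = 0.00239) at 15 min and 1.12 (SE 0.35, adjusted p = 0.00668) at 30 min. With DESeq2 the adjusted p was 0.0582 at 5 min and 0.0746 at 30 min. With 1 library per cDNA it was 0.146 at 5 min, and without culture 1 of 30 min it was 0.0662 at 30 min.

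Of the counts on NABP1 and NABP2 together, NABP2 held 81.19% in culture 1 and 88.60% in culture 2 at 0 min. It held 22.45% and 13.16% at 5 min, 19.47% and 28.26% at 15 min, and 9.28% and 19.28% at 30 min. The lowest 0 min bound was 72.19% and the highest later bound 38.61% (exact 95% intervals, counting error only). This share does not depend on how libraries are scaled. It holds the NABP2 counts that the rule selected on, so the gap between 0 min and later cultures is given as a description.

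**Figure D3:**
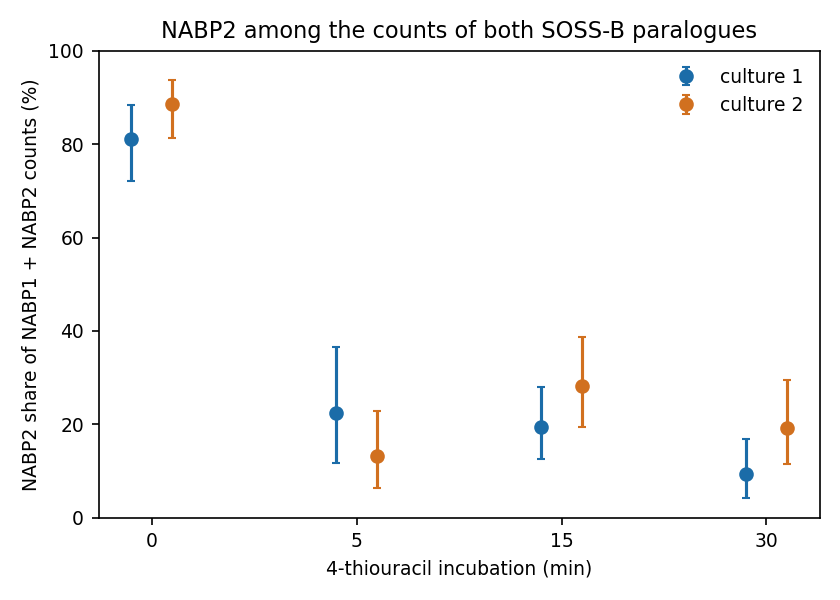
Share of NABP2 (percent) in the counts of NABP1 and NABP2 together by incubation time in min, for each culture, with exact 95% counting intervals as bars. The 0 min cultures sit at 81.19% and 88.60% and the later cultures between 9.28% and 28.26%.

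The partners of NABP2 in the SOSS complex did not share 1 direction. INIP had 75.57 and 82.18 CPM at 0 min. In the later cultures it had between 37.74 and 55.07 CPM, with no overlap, which was not counted over all genes. It was lower at 5, 15 and 30 min, with log2 fold changes of -1.58 (SE 0.28), -1.52 (SE 0.27) and -1.52 (SE 0.27) (adjusted p = 1.04e-05, 1.09e-05 and 9.41e-06 by edgeR), where 26.0%, 24.6% and 23.8% of all genes were lower. INTS3 had 18.89 and 14.68 CPM at 0 min and between 12.69 and 33.47 CPM later, so its groups overlapped. Its log2 fold changes of 0.21 (SE 0.43), -0.67 (SE 0.45) and -0.31 (SE 0.43) did not pass, and with total counts they were 0.94, 0.09 and 0.56, which did not pass either. Of the 3 SOSS subunits other than NABP2, 1 was higher and 1 lower at each time by edgeR, with medians of 0.21, -0.67 and -0.31 against 0.10, 0.19 and 0.35 over all genes. By DESeq2 none was higher at 5 or 30 min.

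**Figure D4:**
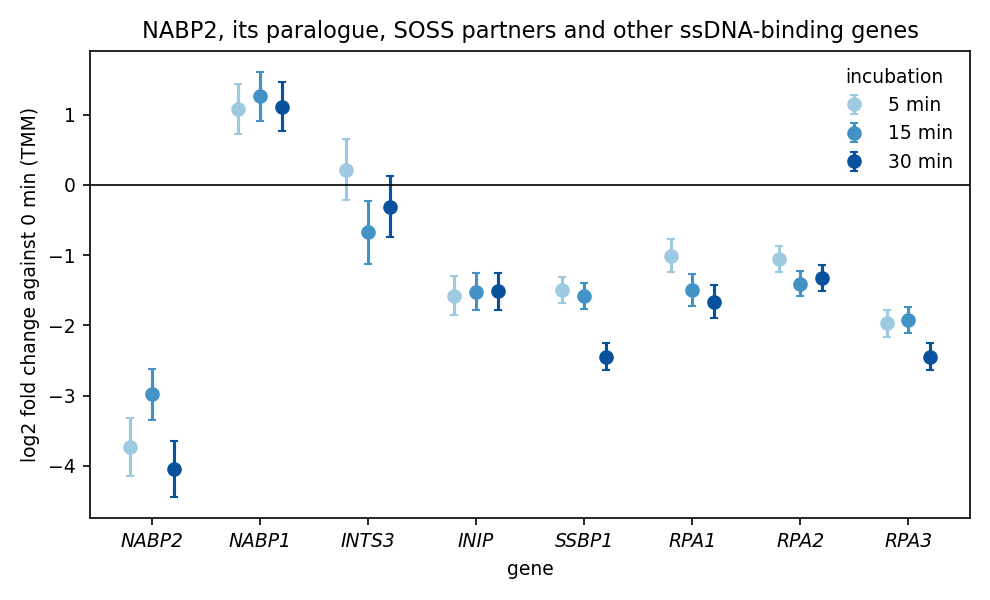
Log2 fold change against 0 min (edgeR, TMM) of NABP2, its paralogue NABP1, the SOSS partners INTS3 and INIP, mitochondrial SSBP1 and the 3 RPA subunits after 5, 15 and 30 min; points are estimates from 2 cultures a time and bars 1 SE. NABP2 lies between -4.04 and -2.98, NABP1 between 1.08 and 1.26, and the RPA subunits between -2.45 and -1.01.

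The RPA genes and SSBP1 had lower shares of the counts after labelling. All 3 RPA subunits were lower at each time by edgeR, beside 26.0%, 24.6% and 23.8% of all genes lower at 5, 15 and 30 min. RPA3 changed most, from 340.07 and 349.28 CPM at 0 min to between 112.38 and 177.34 CPM later. Its log2 fold changes were -1.97, -1.93 and -2.45 (SE 0.19 each), while those of RPA1 were -1.01, -1.50 and -1.66 and those of RPA2 -1.05, -1.41 and -1.32. With total counts RPA1 and RPA2 at 5 min no longer passed (-0.27 with adjusted p = 0.359 and -0.32 with adjusted p = 0.156 by edgeR). SSBP1, with 1594.40 and 1665.17 CPM at 0 min, had 890.75 and 1029.67 CPM at 5 min, 824.00 and 1026.19 CPM at 15 min, and 535.80 and 562.65 CPM at 30 min. Each later culture was below both 0 min cultures, and both 30 min cultures were below the other later ones. The share of all genes that lie apart in this way was not counted. SSBP1 fell by 0.95 on the log2 scale from 5 to 30 min (SE 0.19, adjusted p = 0.000751 by edgeR) and by 0.86 from 15 to 30 min (SE 0.19, adjusted p = 0.0039). The latter adjusted p was 0.0568 without culture 2 of 15 min, 0.114 without culture 1 of 30 min and 0.0769 without culture 2 of 30 min.

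The list of DNA deaminases and single-strand DNA-binding genes has 11 genes besides NABP2, of which 6 could be tested. At each later time 4 of the 6 were lower than at 0 min and 1 higher by edgeR, beside 26.0%, 24.6% and 23.8% of all genes lower. The list's medians were -1.54, -1.55 and -1.88, and with total counts -0.80, -0.77 and -1.002. The lower ones were INIP, SSBP1, APOBEC3B and APOBEC3C, and the higher one was NABP1. APOBEC3C is among the 69 genes chosen for a low later level on the TMM scale, so its place among the 4 restates that choice. APOBEC3C had 46.00 and 28.37 CPM at 0 min, 2.57 and 3.85 CPM at 5 min, 3.73 and 6.68 CPM at 15 min, and 7.88 and 20.84 CPM at 30 min. It was lowest at 5 min, where its log2 fold change against 0 min was -4.16 (SE 0.63, edgeR), given as a description for the same reason. The later value in culture 2 at 30 min came nearest to the 0 min cultures.

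NABP2 acts in the double-strand break response beside the kinase ATM. Of 8 genes of that response 4 were higher at 5 min, 5 at 15 min and 2 at 30 min by edgeR, and none was lower, beside 28.7%, 29.8% and 32.1% of all genes higher. The share at 30 min was thus no higher than over all genes. The list's medians were 0.62, 0.64 and 0.24, against 0.10, 0.19 and 0.35 over all genes. ATM had 11.50 and 15.65 CPM at 0 min and between 116.04 and 167.89 CPM later, and RBBP8, the resection factor CtIP, had 46.82 and 47.94 CPM at 0 min and between 215.92 and 271.65 CPM later. Neither gene overlapped between 0 min and later cultures, but the share of all genes without overlap was not counted. ATM rose by 2.88, 2.45 and 2.28 on the log2 scale (SE 0.28, 0.29 and 0.29) and RBBP8 by 1.75, 1.48 and 1.54 (SE 0.21 each). With total counts 7, 7 and 6 of the 8 were higher, beside 4461, 4901 and 5622 of all 10439 genes with that scaling. With RLE size factors 4, 3 and 2 were higher, beside 2855, 2874 and 2909 of all genes. In that setting 1 was lower at 30 min, beside 2761 of all genes.

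Among the 14 Integrator genes, which share INTS3 with the SOSS complex, 3 were higher and 3 lower at 5 min by edgeR. At 15 min 2 were higher and 3 lower, and at 30 min 2 and 2. Over all genes 28.7%, 29.8% and 32.1% were higher at 5, 15 and 30 min, and 26.0%, 24.6% and 23.8% lower. Neither share was larger among the 14 than over all genes at any time. The medians of the 14 were 0.22, 0.01 and 0.06, against 0.10, 0.19 and 0.35 over all genes. INTS6 rose most, from 9.86 and 10.76 CPM at 0 min to 184.07 and 156.34 CPM at 5 min, 112.70 and 94.23 CPM at 15 min, and 64.47 and 98.99 CPM at 30 min. It was highest at 5 min, and it then fell by 1.19 on the log2 scale from 5 to 30 min (SE 0.23, adjusted p = 0.000555 by edgeR). INTS10 rose by 1.59, 0.99 and 1.25, and the log2 fold changes of VWA9 (INTS14) were -1.44, -1.25 and -1.46. With total counts 6, 7 and 7 of the 14 were higher and 1, 0 and 1 lower. Over all genes that scaling moved the split in the same way, to 4461 higher and 1448 lower at 5 min in place of 2998 and 2712, 4901 and 1307 at 15 min in place of 3110 and 2573, and 5622 and 1331 at 30 min in place of 3352 and 2485.

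RNF41, a ubiquitin ligase gene, starts beside the 5' end of NABP2 on the other strand in the GENCODE annotation, and no source used here names the strand that was counted. It had 42.71 and 82.18 CPM at 0 min, 24.46 and 49.29 CPM at 5 min, 68.67 and 50.46 CPM at 15 min, and 101.72 and 79.63 CPM at 30 min. Its 0 min cultures overlapped the later ones. Those of NABP2 did not, but the rule selected NABP2 on that gap and did not select RNF41. RNF41 differed by -1.42 (SE 0.33, adjusted p = 0.000443 by edgeR) at 5 min, by -0.83 (SE 0.31, adjusted p = 0.0215) at 15 min and by -0.32 (SE 0.30, adjusted p = 0.363) at 30 min. The first 2 no longer passed without culture 2 of 0 min (adjusted p = 0.0712 and 0.638) or with total counts (adjusted p = 0.0759 and 0.910), and the 15 min one also without culture 2 of 15 min (adjusted p = 0.180) or with DESeq2 (adjusted p = 0.0665). From 5 to 30 min RNF41 rose by 1.09 (SE 0.32, adjusted p = 0.0186), which no longer passed with DESeq2 (adjusted p = 0.108), without culture 1 of 5 min (adjusted p = 0.204) or without culture 1 of 30 min (adjusted p = 0.198). SLC39A5, on the other side of NABP2, had 1 count in all libraries.

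NABP2 is a short gene. In the GENCODE annotation it spans 7840 bases, against a median of 26264 over the 2574 of 2698 genes with a match (95.4%), and 17.64% of them are shorter. Its transcript has 6 exons and 1775 bases, against medians of 8 and 2389. Uridines make up 21.13% of it against a median of 26.34%, and 12.82% of genes have a lower share. Shorter genes had lower ratios: the median ratio was 0.576, 0.648, 0.873 and 1.50 in 4 equal-sized groups of increasing span, whose median spans were 5772, 17536, 36801 and 90052 bases. Across these genes Spearman's rho with the log2 ratio was 0.475 for span, 0.434 for transcript length and 0.140 for uridine percent. All genes share the same libraries in these values, which are given without a test. The 10 genes just above the ratio limit had a median span of 32707 bases and a range of 4618 to 85885, on both sides of that of NABP2.

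The 20 gene lists held 432 genes at or above 50 CPM at 0 min, of which only NABP2 met the rule. Median ratios of the lists ran from 0.452 for glycolysis to 0.820 for HMG proteins and replacement histones, beside 0.748 over all genes. The lowest ratios on other lists were 0.245 for PFN2, an actin-binding profilin, 0.262 for TPT1, 0.279 for IDH3G, a subunit of mitochondrial isocitrate dehydrogenase, 0.281 for SSR3 of the endoplasmic reticulum translocon and 0.285 for RHOA. NABP2 at 0.153 was below all of these, which the rule fixed.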

How the data were processed

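Whole-number counts were deposited by the authors in 1 table of 32738 gene entries by 32 libraries. The submitters' processing notes name STAR and hg19; the version, the strand counted and any molecular identifiers are not stated. The rule was applied to CPM of total counts. Counts of the 4 libraries of a culture were summed, giving 776871 to 1396056 per culture. Tests used edgeR 4.0.16 in R 4.3.3 (quasi-likelihood, TMM, filterByExpr leaving 10439 genes, 8 cultures, 4 residual degrees of freedom, Benjamini-Hochberg at 0.05, two-sided); DESeq2 1.42.0 was an alternative. The pipeline was tested on simulated counts with 200 of 10439 genes changed from 5 to 30 min. It recovered 4.48% of changes of 1.5-fold, 40.3% of 2-fold and 78.8% of 4-fold. Of its 84 calls 2 were false. An exact permutation test of 2 cultures against 2 was not run, its smallest p being 0.333. NABP2 and the gene lists were chosen with earlier results of these data known, and the SOSS, RPA, Integrator, break response and neighbour genes after the NABP2 values were seen. The naming rule took the lowest ratios, the most abundant genes, the smallest adjusted p and the 3 genes on either side of each limit; for the 69 genes only some of these are named. Gene features came from GENCODE v29 and promoters from RefSeq, both matched by symbol and on GRCh38, which is not the build of the counts, so no other coordinates are given.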

Additional observations from a re-analysis of the deposited data

How the results depend on the processing

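Counts of NABP2 after labelling are few, which limits every comparison between the later times, and only 2 cultures a time were available. NABP2 met the rule in each alternative except the 100 CPM minimum. The number of genes meeting it was 12 with a ratio limit of 0.25, 0 with a minimum of 100 CPM, 69 with TMM-scaled CPM, 2 with 1 library per cDNA, 4 and 3 with the first or second cDNA preparation alone (added after seeing the data), and between 2 and 5 with a replicate number left out. With total counts the log2 fold change of NABP2 against 0 min moved to -2.20 at 15 min and -3.16 at 30 min. Over 15 alternatives its change ran from 0.31 to 1.16 from 5 to 15 min (adjusted p 0.453 to 0.887) and from -1.55 to -0.69 from 15 to 30 min (adjusted p 0.159 to 0.830). From 5 to 30 min it ran from -0.80 to 0.10 (adjusted p 0.519 to 0.981), with the sign turned without culture 1 of 5 min (0.0975) and without culture 1 of 30 min (0.0551). Same-numbered cultures showed little common deviation over the genes tested (6 correlations of -0.0324 to 0.0809). Counting noise in scarce genes lowers such correlations, so they cannot exclude that the numbers pair the samples. With the replicate block the NABP2 changes were 0.76, -1.07 and -0.31, and the calls among the 69 genes stayed at 10 and 5 lower. For named genes other than NABP2, 862 refits of 61 changes called in the main fit gave 787 on the same side of the threshold. Of the rest 74 were no longer past it and 1 turned (ASUN, 0 to 15 min, 0.00306 with total counts). Only called changes were refitted, so a refit could not add a call. These genes include APOBEC3C, which met the rule on the TMM scale. Over all genes, from 5 to 30 min 614 were higher and 681 lower; DESeq2 gave 314 higher, total counts 311 lower, RLE size factors 1122 lower and no low-count filter 414 lower. From 5 to 15 min (108 higher, 54 lower) total counts gave 36 lower, DESeq2 66 higher and 24 lower, and the 6 later cultures alone 180 higher and 86 lower. From 15 to 30 min (236 higher, 290 lower) DESeq2 gave 99 higher. With 1 culture left out these all-gene counts ran from 61 to 161 higher and 0 to 113 lower from 5 to 15 min, 65 to 315 higher and 52 to 354 lower from 15 to 30 min, and 305 to 770 higher and 165 to 857 lower from 5 to 30 min. The lowest numbers of lower genes came without culture 2 of 15 min (0) and without culture 2 of 30 min (52 and 165), so the all-gene percentages between later times rest on single cultures too. The cause of these shifts was not tested.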
